A study of Homo sapiens with 7 samples.

Results

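The glucose and lactate transporters described here are 8 genes: SLC2A1, SLC2A2, SLC2A3, SLC2A5, SLC5A1, SLC16A1, SLC16A3 and BSG. They were chosen by name, out of 20033 protein-coding genes on the nuclear chromosomes. A peak was counted for a gene when its summit lay inside the RefSeq span of the gene or within 20 kb of it, and 42 of the 47016 peaks listed on these chromosomes met this rule. Binding of the transcription factor Myc had been mapped by CUT&RUN in HT29, an established human colon cancer cell line. In CUT&RUN, an antibody brings a nuclease to the chromatin where the protein sits, and the fragments that the nuclease releases are sequenced. By title there were 3 Myc libraries, 3 IgG libraries and 1 input library, 7 in all, and by the labels the cells of all of them had 6 h of oleic acid, a fatty acid, in medium without serum. The Myc antibody is also named in the labels of the libraries titled IgG, and groups were taken from the titles. Cells without oleic acid were not analysed here, so the values give where Myc was found after the fatty acid and no change brought by it. The list holds no RNA, and the cell line is taken from its label.

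Glucose enters cells by facilitative carriers of the SLC2 (GLUT) family, which let sugar run down its gradient, or by sodium-coupled carriers of the SLC5 (SGLT) family, which can move it against its gradient. Cells that run glycolysis fast turn pyruvate into lactate and pass it out with a proton through monocarboxylate transporters of the SLC16 (MCT) family. Some of these carriers reach the plasma membrane only together with the glycoprotein basigin. In the gut, SGLT1, GLUT2 and GLUT5 belong to the sugar-absorbing enterocyte, whereas GLUT1 and the lactate carriers are known for high levels in many carcinomas. Myc is a transcription factor long linked to the genes of glucose use, and with its partner MAX it recognises E-box sequences.

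The authors' list of Myc peaks gives 1 value per peak and none per library, so no spread between replicates exists for any value below. How the Myc libraries were joined in it is not given. Strength is the authors' fold enrichment, the Myc pileup (fragments over the summit) plus 1 divided by the control level plus 1. Each fold is given with an exact Poisson 95% interval of its pileup, the control level held fixed, which covers counting error only. The 42 peaks had folds between 2.14 and 19.9 with a median of 5.01, against a median of 4.11 over all listed peaks. Their pileups ranged from 15 to 131 and their control levels from 5.09 to 9.17, and 35.7% of them stood within 0.01 of the lowest control level in the list, against 23.7% of all peaks. The control levels were solved from the deposited values and are not counts of control fragments at a site. Of the 42 summits, 22 lay inside a transporter gene and 20 outside. Because peaks of 1 gene share a locus, they are not replicates of each other.

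Peaks were found at 7 of the 8 genes, and SLC2A3 had none. Over all protein-coding genes, 79.7% had at least 1 summit by the same rule, so the share among the transporters is near the background. SLC2A1 had 16 peaks, SLC16A3 12, SLC2A2 6, SLC16A1 3, BSG 2, SLC5A1 2 and SLC2A5 1, against a median of 2 over all protein-coding genes. A summit within 1 kb of the 5′ end of the span was found at 3 of the 8 genes, SLC16A1, SLC2A1 and SLC5A1, against 54.5% of all protein-coding genes. For SLC16A1 and SLC2A3 the tables used here gave no strand, and both annotated ends were counted. With any start that RefSeq lists for the gene in place of the end of its span, SLC16A3 and BSG joined them, 5 of 8 genes against 57.3%. With either annotated end counted for every gene, 4 of 8 had a summit, against 56.4%. Of the 6 transporter genes whose strand was given, 2 had a summit at the 5′ end, against 56.5% of the protein-coding genes whose strand was given. At least 1 summit inside the span was found in 7 of 8 genes, against 57.5%.

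**Figure D1:**
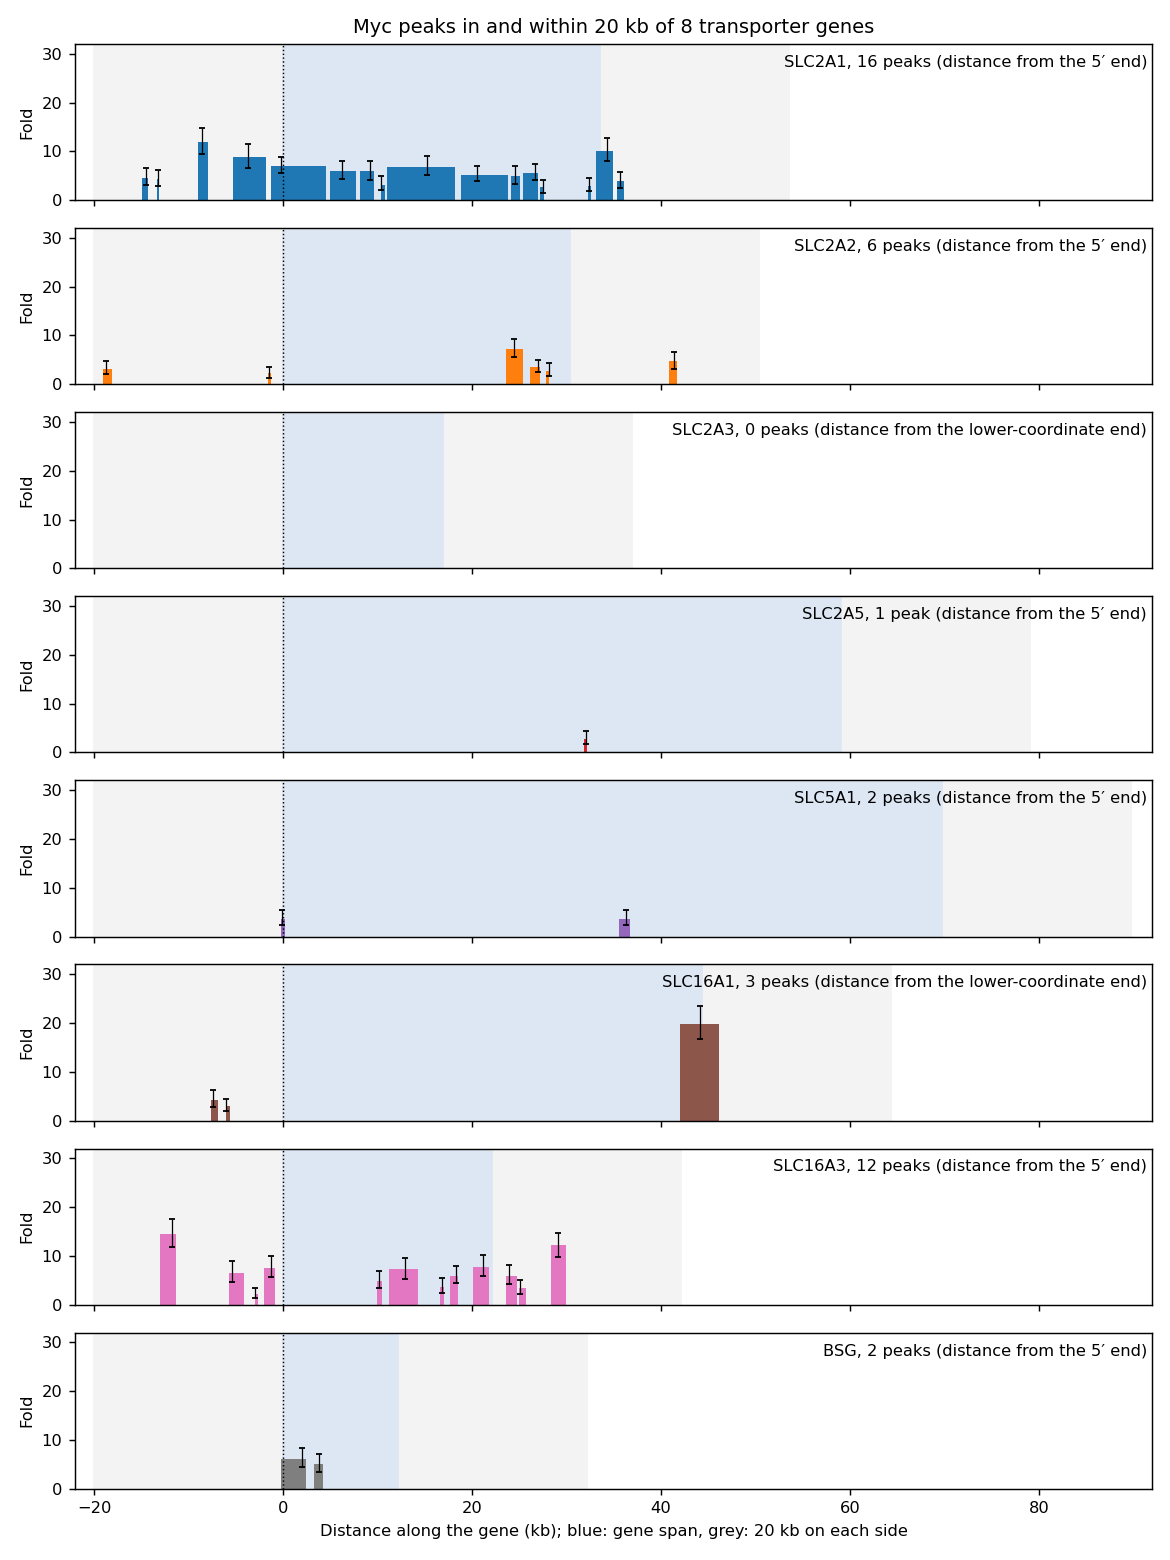
Each row shows 1 gene, with distance along the gene in kb on the horizontal axis (from the 5′ end, or from the lower-coordinate end for SLC2A3 and SLC16A1) and fold enrichment on the vertical axis; bars span each peak from start to end and thin lines are exact Poisson 95% intervals at the summit. SLC2A1 carried 16 peaks on both sides of and across the gene, SLC16A1 1 tall peak near its higher-coordinate end, and SLC2A3 none.

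SLC16A1 encodes MCT1, the proton-coupled carrier that moves lactate and pyruvate across the plasma membrane in either direction. Its span lies on chromosome 1 from 112911847 to 112956196 (GRCh38). The peak with the highest fold among all 42 lay at its higher-coordinate end. The summit at 112955948 was 248 bp inside that end. There 131 fragments overlapped against a control level of 5.64, a fold of 19.9 (95% interval 16.6 to 23.6). Of all listed peaks, 99.2% had a lower fold and 99.1% were narrower than its 4148 bp. The peak ran from 112953814 to 112957961, and so also across the near end of SLC16A1-AS1, a long non-coding RNA gene that begins at 112956415. The other pair of peaks lay beyond the lower-coordinate end, inside the span of the non-coding gene LOC124904342. Their summits were 6012 and 7404 bp from SLC16A1, with folds of 3.05 (1.98 to 4.51) and 4.27 (2.82 to 6.22), and their intervals overlapped each other but not that of the peak at the gene end. No summit lay elsewhere in the 44.35 kb of the gene.

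SLC16A3 encodes MCT4, the lactate carrier of strongly glycolytic cells. Its span is on chromosome 17 from 82217934 to 82240086, on the plus strand, and it lay among other genes: CCDC57 ends 5092 bp below it, and CSNK1D, the gene of casein kinase 1 delta, overlaps its 3′ end. Of its 12 peaks, 6 had another protein-coding gene nearer than SLC16A3. These included the highest folds of the locus, 14.5 (11.9 to 17.6) at 82206230, inside CCDC57, and 12.1 (9.87 to 14.8) at 82247068, inside CSNK1D. Among the 6 peaks with no other coding gene nearer, folds went up to 7.76 (5.80 to 10.2), at 82239103, but that summit lay inside both genes, 84 bp from the end of CSNK1D and 983 bp from that of SLC16A3. A summit at 82216663 was 1271 bp upstream of the 5′ end of the span. There 54 fragments overlapped against a control level of 6.22, a fold of 7.62 (5.76 to 9.90). The 12 peaks covered 23.9% of the SLC16A3 window, more than in 97.8% of protein-coding genes.

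Inside SLC16A3, peaks lay at several of the 5 starts that RefSeq lists. A summit at 82228076 was 359 bp from the start at 82228435, with a fold of 4.92 (3.35 to 7.0). One at 82234787 was 112 bp from the start at 82234899, with 3.61 (2.30 to 5.43). One at 82236235 was 461 bp from the start at 82235774, with 5.97 (4.40 to 7.92). The widest peak of the locus, 3118 bp, ran from 82229106 to 82232223 with a fold of 7.22 (5.27 to 9.67). The intervals of these 4 folds overlapped one another, but those of 3.61 and 7.22 only between 5.27 and 5.43.

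BSG encodes basigin, the chaperone that carries MCT1 and MCT4 to the cell surface. It lies on chromosome 19 from 571283 to 583493, on the plus strand, and both of its summits were inside the gene. The first peak spanned 571112 to 573741 and so covered both starts that RefSeq lists, at 571283 and 572596. Its summit at 573307 was 2024 bp from the outer start and 711 bp from the inner one. This summit had 39 fragments against a control level of 5.57 and a fold of 6.09 (4.38 to 8.27). The other, at 575039, had 30 fragments against 5.09 and a fold of 5.09 (3.49 to 7.19), whose interval overlapped that of the first. Outside these, the nearest summits were 38430 bp below and 26985 bp above the gene. The peak at the BSG starts also reached over the higher-coordinate end of BSG-AS1, an antisense non-coding gene that overlaps the beginning of BSG.

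The 250 bases before the inner BSG start are printed because, of the transporter promoters in the table, only this one held the canonical E-box CACGTG. Capitals mark that hexamer and, after it, a pair of variant forms, first CATGCG and then CGCGTG, which reads CACGCG on the other strand. The sequence is from RefSeq, GRCh38.p14, chr19:572346-572595, plus strand:
BSG inner start: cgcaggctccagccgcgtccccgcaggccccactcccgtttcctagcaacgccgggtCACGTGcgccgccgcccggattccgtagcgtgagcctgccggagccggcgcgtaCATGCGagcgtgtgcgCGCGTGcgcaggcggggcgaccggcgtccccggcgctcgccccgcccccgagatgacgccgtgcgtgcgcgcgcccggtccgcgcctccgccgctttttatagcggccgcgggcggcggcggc
The CACGTG lay 193 bases upstream of that start, inside the peak and 904 bp from its summit. The CATGCG and CGCGTG were 850 and 834 bp from the summit, so all 3 lay to the same side of it. The 300-base window around this start had 54 CpG dinucleotides, more than 99.5% of the promoters in the table, and a GC content of 75.3%, against medians of 21 and 62.3% over all promoters.

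SLC2A1 encodes GLUT1, the carrier of basal glucose uptake in most cell types. It had the most peaks of the 8 genes. Its span is on chromosome 1 from 42925353 to 42958868, on the minus strand, and no other protein-coding gene lay nearer to any of its 16 summits. At least 16 peaks by the same rule were found in 1.02% of protein-coding genes, and at least 12, the number at SLC16A3, in 2.85%. Longer genes have wider windows, so the number was also taken per length: SLC2A1 had 2.18 summits per 10 kb, higher than 99.1% of protein-coding genes. Its peaks covered 46.2% of the window, higher than 99.8% of protein-coding genes, against a median of 2.78%.

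The SLC2A1 peaks lay close together over the gene, with open stretches between them. Between neighbouring peaks, 12 of 15 gaps were shorter than 1 kb. The gaps ranged from 221 to 4725 bp, and the longest lay inside the gene. Of the 16 summits 9 were inside the gene, 5 upstream of its 5′ end and 2 beyond its 3′ end. All 5 upstream summits also lay inside SLC2A1-DT, a divergent long non-coding RNA gene that begins 181 bp from SLC2A1. Outside the gene, folds ranged from 3.94 to 11.9 with a median of 7.08, and inside it from 2.63 to 6.80 with a median of 5.19. The highest fold, 11.9 (9.41 to 14.8), was 8623 bp upstream of the 5′ end, at 42967491, with 77 fragments against a control level of 5.57. The next, 10.1 (7.94 to 12.7), was at the other side of the gene, 776 bp beyond its 3′ end, where 72 fragments stood against 6.22. Another upstream site, 3700 bp from the 5′ end, had 8.86 (6.68 to 11.5). The intervals of these 3 folds overlapped one another.

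At the SLC2A1 5′ end itself, the summit at 42959120 was 252 bp upstream, with 71 fragments against the highest control level among the 42 peaks, 9.17. Its fold was 7.08 (5.55 to 8.91), and 78.9% of all listed peaks had a lower one. The peak was 5845 bp wide, wider than 99.8% of all peaks. Further wide peaks inside the gene measured 7147 bp with a fold of 6.80 (5.06 to 8.94) and 5032 bp with 5.19 (3.82 to 6.91). By width these 3 SLC2A1 peaks were above at least 99.6% of all listed peaks, whereas by fold they were above 64.5% to 78.9% of them. Among the 42 peaks, 4 (9.52%) were 4 kb or wider, 3 at SLC2A1 and 1 at SLC16A1, against 1.05% of all listed peaks.

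**Figure D2:**
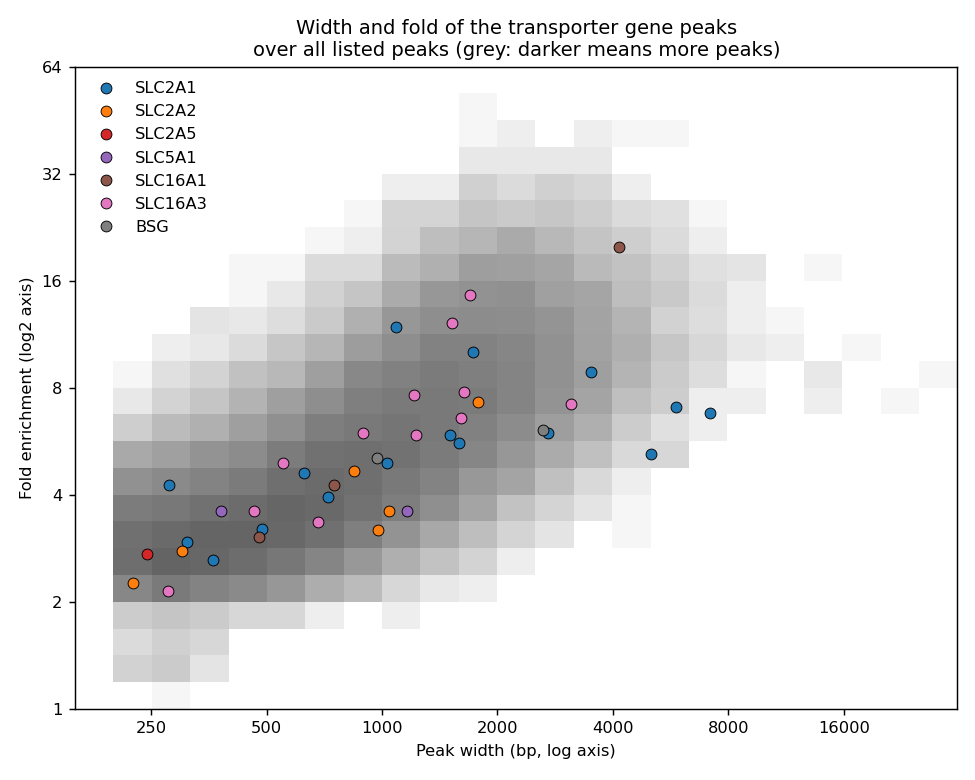
Peak width in bp (log axis) against fold enrichment (log2 axis); coloured points are the 42 transporter peaks by gene, and grey squares hold all listed peaks, darker where there are more. The 3 SLC2A1 peaks of 5032, 5845 and 7147 bp sit in the lower right part of the grey cloud with folds of 5.19, 7.08 and 6.80, while the SLC16A1 peak of 4148 bp sits higher, at 19.9.

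The promoter of SLC2A1 is shown because the summit at this 5′ end lay just beyond its first printed base, while the window held no canonical E-box. The 250 bases before the start, RefSeq GRCh38.p14, chr1:42958869-42959118, minus strand, carry in capitals 2 GC boxes (GGGCGG on the other strand), then a CCAAT box and then a TATAAA box:
SLC2A1: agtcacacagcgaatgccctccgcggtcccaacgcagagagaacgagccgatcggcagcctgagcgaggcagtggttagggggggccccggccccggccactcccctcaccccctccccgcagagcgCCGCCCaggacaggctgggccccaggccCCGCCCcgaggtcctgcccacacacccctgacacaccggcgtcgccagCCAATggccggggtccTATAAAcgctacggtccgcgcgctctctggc
None of the 4 E-box forms searched (CACGTG, and as variants CACGCG, along with CATGTG as well as CATGCG) was found on either strand, which says only that these letters are not in this window. Its GC content was 71.0% with 30 CpG dinucleotides.

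SLC5A1, SLC2A2 and SLC2A5 encode the sugar carriers of the absorbing enterocyte, and none of them had a fold above 3.61 within 2 kb of its 5′ end. SLC5A1, the gene of the sodium-glucose cotransporter SGLT1, is on chromosome 22 from 32043261 to 32113029, on the plus strand. Its summit at 32043193 was 68 bp upstream of the start, the closest of all 42. This summit had 21 fragments against a control level of 5.09 and a fold of 3.61 (2.30 to 5.43). A further SLC5A1 peak, 36294 bp inside the gene, had the same pileup, control level and fold. This control level was within 0.01 of the lowest in the list. Of all listed peaks, 38.5% had a lower fold. The start peak was 381 bp wide and covered the later part of the 250 bases printed here, RefSeq GRCh38.p14, chr22:32043011-32043260, plus strand, in which capitals mark a GC box:
SLC5A1: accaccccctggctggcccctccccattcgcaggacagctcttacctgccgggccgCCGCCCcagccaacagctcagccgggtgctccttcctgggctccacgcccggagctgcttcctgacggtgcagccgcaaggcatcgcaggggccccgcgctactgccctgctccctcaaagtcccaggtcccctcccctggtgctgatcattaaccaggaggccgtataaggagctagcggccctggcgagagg
None of the 4 E-box forms was found in this window either.

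SLC2A2 encodes GLUT2, a low-affinity carrier of liver, pancreatic beta cells and the basolateral side of the gut epithelium. It is on chromosome 3 from 170996347 to 171026720, on the minus strand. Its strongest peak was inside the 3′ part of the gene, 5879 bp from the lower end and 24494 bp from the 5′ end. That summit, at 171002226, had 60 fragments against a control level of 7.35. Its fold of 7.30 (5.60 to 9.36) was higher than that of 80.1% of all listed peaks. Inside the gene there were also folds of 3.59 (2.49 to 5.03) and 2.77 (1.72 to 4.25). The summit nearest to the 5′ end was 1522 bp upstream, with 16 fragments against 6.55 and a fold of 2.25 (1.34 to 3.57). Only 2.0% of all listed peaks had a lower fold. Outside the gene, folds of 4.67 (3.22 to 6.56) and 3.17 (2.08 to 4.66) were 11040 bp below and 18779 bp above it, and the summit above it was nearer to TNIK, a kinase gene.

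The SLC2A2 promoter is printed as the counterpart without a peak: no listed peak overlapped its window. In the 250 bases before the start, RefSeq GRCh38.p14, chr3:171026721-171026970, minus strand, capitals mark CANNTG, the loose form of the E-box:
SLC2A2: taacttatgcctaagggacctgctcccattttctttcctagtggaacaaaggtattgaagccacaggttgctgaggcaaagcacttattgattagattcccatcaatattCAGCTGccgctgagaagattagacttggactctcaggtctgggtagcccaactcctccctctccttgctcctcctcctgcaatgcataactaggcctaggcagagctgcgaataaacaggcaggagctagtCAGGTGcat
A CATGTG match began 3 bases before the start and ran past it. The window had 2 CpG dinucleotides and a GC content of 49.0%, and 6.05% of all promoters had fewer CpG dinucleotides and 18.1% a lower GC content.

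SLC2A5 encodes GLUT5, the fructose carrier. It lies on chromosome 1 from 9035106 to 9094195, on the minus strand, and held 1 peak, the weakest maximum among the 7 genes with peaks. Its summit at 9062110 was well inside the gene, 7525 bp from the start that RefSeq lists at 9069635. There 16 fragments overlapped against a control level of 5.24, a fold of 2.72 (1.63 to 4.32). Its −log10 q in the authors' deposited table was 2.46, so it was lost when at least 3 was asked for. The promoter window of SLC2A5 had 5 CpG dinucleotides and no overlapping peak.

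SLC2A3 encodes GLUT3, a high-affinity glucose carrier best known from neurons. It is on chromosome 12 from 7919230 to 7936187, and no peak was listed in it or within 20 kb. The nearest summit above the gene was 90771 bp away, with a fold of 12.7 (10.1 to 15.8), and the nearest below it 335123 bp away. Of all protein-coding genes, 10.0% had their nearest summit farther away than SLC2A3. The neighbouring gene SLC2A14, a close duplicate of SLC2A3, lay in the same stretch, with its nearest summit 135762 bp away. How fragments that match both copies were treated is not given in the sources used here, and its part in the missing peaks was not tested. At the lowest control level the smallest listed pileup was 14, a fold of 2.46, so sites there with fewer fragments are not in the list.

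The strongest peak of a gene is a maximum over 16 peaks at SLC2A1 but over 1 at SLC2A5. Genes with many peaks thus have more chances of a high one. By median fold per gene, the order was SLC16A3 6.27, BSG 5.59, SLC2A1 5.40, SLC16A1 4.27, SLC5A1 3.61, SLC2A2 3.38 and SLC2A5 2.72. By the fold of the strongest peak in its window, the order was SLC16A1, SLC16A3, SLC2A1, SLC2A2, BSG, SLC5A1 and SLC2A5. Neighbours in this order had overlapping intervals, except SLC2A1 and SLC2A2, where 9.41 to 14.8 stood just above 5.60 to 9.36. With peaks that lay nearer to or inside another protein-coding gene left out, SLC16A3 stood at 7.62 (5.76 to 9.90), between SLC2A1 and SLC2A2 and with an interval that overlapped both. At the 5′ end, the 3 genes with a summit were separated beyond counting error: SLC16A1 at 16.6 to 23.6, SLC2A1 at 5.55 to 8.91 and SLC5A1 at 2.30 to 5.43. Median fold over these 3 was 7.08, against 7.88 over all protein-coding genes with such a summit.

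**Figure D3:**
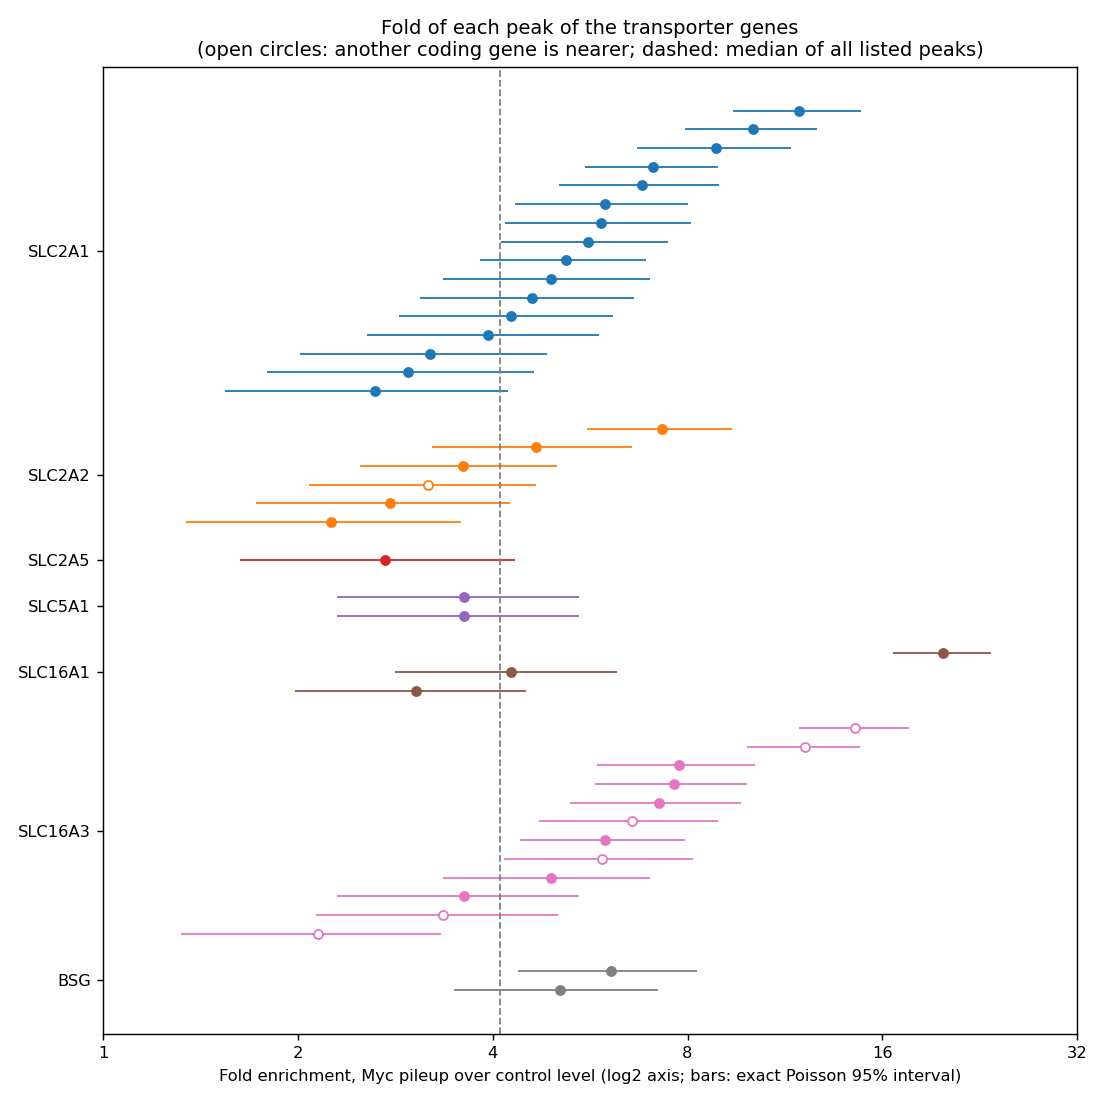
Fold enrichment (log2 axis) of each of the 42 peaks, grouped by gene and sorted within it; points are the authors' folds, bars exact Poisson 95% intervals, open circles mark peaks nearer to another protein-coding gene, and the dashed line is the median of all listed peaks, 4.11. The SLC16A1 peak at 19.9 is the highest point, with an interval that overlaps that of the highest SLC16A3 point. The 2 highest SLC16A3 points are open.

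**Figure D4:**
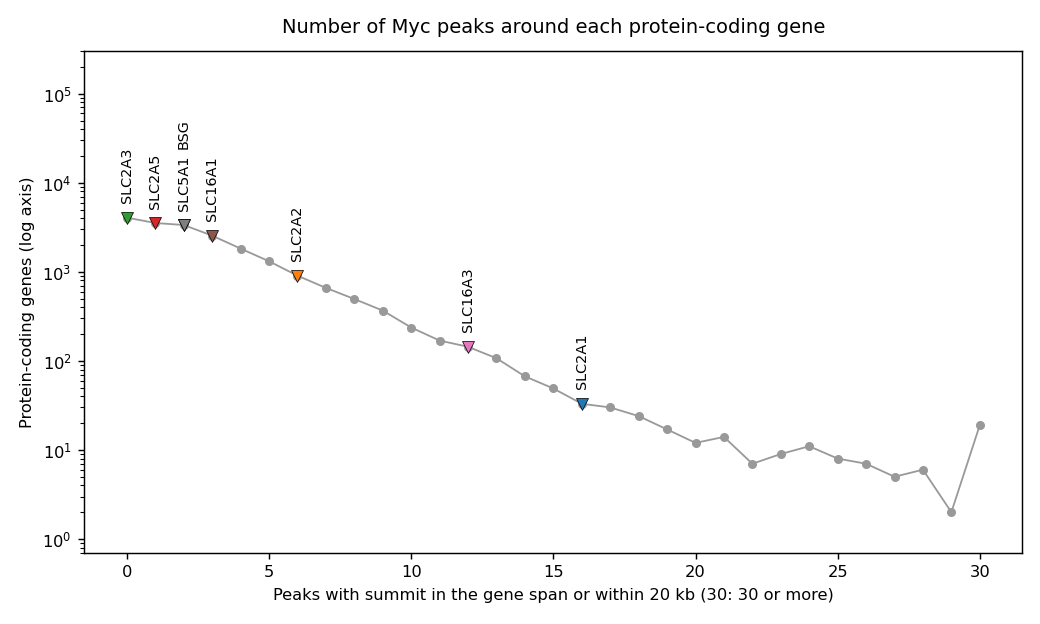
Number of protein-coding genes (vertical log axis) by the number of peaks in the gene span or within 20 kb of it (horizontal axis); grey points are all protein-coding genes (those with 30 or more peaks share the last point) and triangles mark the 8 transporters. SLC2A1 with 16 and SLC16A3 with 12 peaks lie in the sparse range of high peak numbers. As many or more were found in 1.02% and 2.85% of genes, and SLC2A3 lies at 0.

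The promoter table held 6 of the 8 genes with 11 windows, each from 250 bases before to 50 after a listed start. SLC16A1 and SLC2A3 were not in it. CACGTG, read on both strands, was found in 1 of the 11 windows, that of BSG, and in 8.34% of the 22198 windows of protein-coding genes. SLC16A3 alone gave 5 of the 11 windows, and windows of 1 gene lie close together. CACGCG was found in 2 of the 11, at BSG and SLC2A5, and in 14.2% of all windows. CATGTG was found in 1, at SLC2A2 (8.93% of all windows), and CATGCG in 1, at BSG (7.92%). The looser CANNTG, which includes CACGTG and CATGTG, was found in 6 of the 11 windows, against 65.1% of all windows. ACGTG, which is part of CACGTG, was found in 2 of the 11, at BSG and SLC16A3, against 23% of all windows. GCGTG, which reads CACGC on the other strand and so lies within CACGCG, was found in 6 of the 11, against 43.0%. GGGCGG was found in 6 of the 11 windows (56.3% of all windows), CCAAT in 2, at SLC2A1 and SLC2A5 (34.7%), and TATAAA in 3, at BSG, SLC2A1 and SLC2A5 (9.47%).

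One SLC16A3 start is printed for its paired ACGTG. The 250 bases before the start at 82229042, RefSeq GRCh38.p14, chr17:82228792-82229041, plus strand, carry the pair in capitals:
SLC16A3: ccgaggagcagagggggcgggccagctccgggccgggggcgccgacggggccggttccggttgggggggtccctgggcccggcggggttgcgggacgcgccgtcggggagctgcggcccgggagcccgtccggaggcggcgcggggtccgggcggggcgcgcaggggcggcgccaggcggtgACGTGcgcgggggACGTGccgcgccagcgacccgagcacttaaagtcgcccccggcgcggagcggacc
This window was the only one of the 5 at SLC16A3 that no peak overlapped, although peaks stood on both sides of it. The window ended at 82229091, and the widest peak of the locus began just beyond it, at 82229106. It had 51 CpG dinucleotides and a GC content of 82.7%, higher than 98.8% of all promoters. The nearest summit was 966 bp away. Across the 11 windows, 8 were overlapped by a peak, and the 3 without one were this window and those of SLC2A2 and SLC2A5. The share of all promoter windows overlapped by a peak was not computed, so this count has no background. SLC16A3 alone gave 5 of the windows, and a link to CpG number was not tested.

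Other genes of the same families and of the route from glucose to lactate were counted as whole lists by the same rule. Of 62 such genes 34 had a summit within 1 kb of the 5′ end (54.8%), against 54.5% of all protein-coding genes, with a median fold of 7.11 against 7.88. Among the other facilitative hexose transporters, 5 of 10 had one, with SLC2A4 (GLUT4, the insulin-responsive carrier) at 9.03 (6.82 to 11.7) and SLC2A6 at 7.77 (5.80 to 10.2). SLC2A14 had none. Among 8 sodium-coupled sugar and monocarboxylate carriers only SLC5A3, a myo-inositol carrier, had one, with 3.61 (2.30 to 5.43), near an end of MRPS6 as well. Among 12 other SLC16 genes 5 did, led by SLC16A7, the gene of the lactate and pyruvate carrier MCT2, at 8.82 (6.66 to 11.5). SLC16A8, the gene of the retinal lactate carrier MCT3, had none and no summit within 20 kb.

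Of the partners and regulators, EMB, whose product embigin serves MCT2 as basigin serves MCT1, had no summit within 20 kb, while NPTN, the gene of the related neuroplastin, had a fold of 5.91 (4.57 to 7.54). The arrestin-domain genes TXNIP and ARRDC4, whose products restrain glucose uptake by removing GLUT1 from the membrane, had 7.0 (5.38 to 8.96) and 10.4 (8.15 to 13.1). Both subunit genes of the mitochondrial pyruvate carrier had a peak, MPC1 with 14.3 (11.8 to 17.1) and MPC2 with 13.8 (11.1 to 17.0). Among 26 enzymes from hexokinase to lactate dehydrogenase, 18 had one, with a median fold of 8.69. The highest there were GAPDH at 17.9 (14.7 to 21.6), LDHA at 15.7 (13.1 to 18.7) and LDHB at 15.5 (13.0 to 18.3), the last 2 being the subunits of the enzyme that makes or consumes lactate. The interval of SLC16A1, 16.6 to 23.6, overlapped those of these 3 genes, of ALDOA, of MPC1 and of MPC2, and no gene of these lists had a fold at its 5′ end as high as that of SLC16A1. None of these lists was tested against the other genes.

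**Figure D5:**
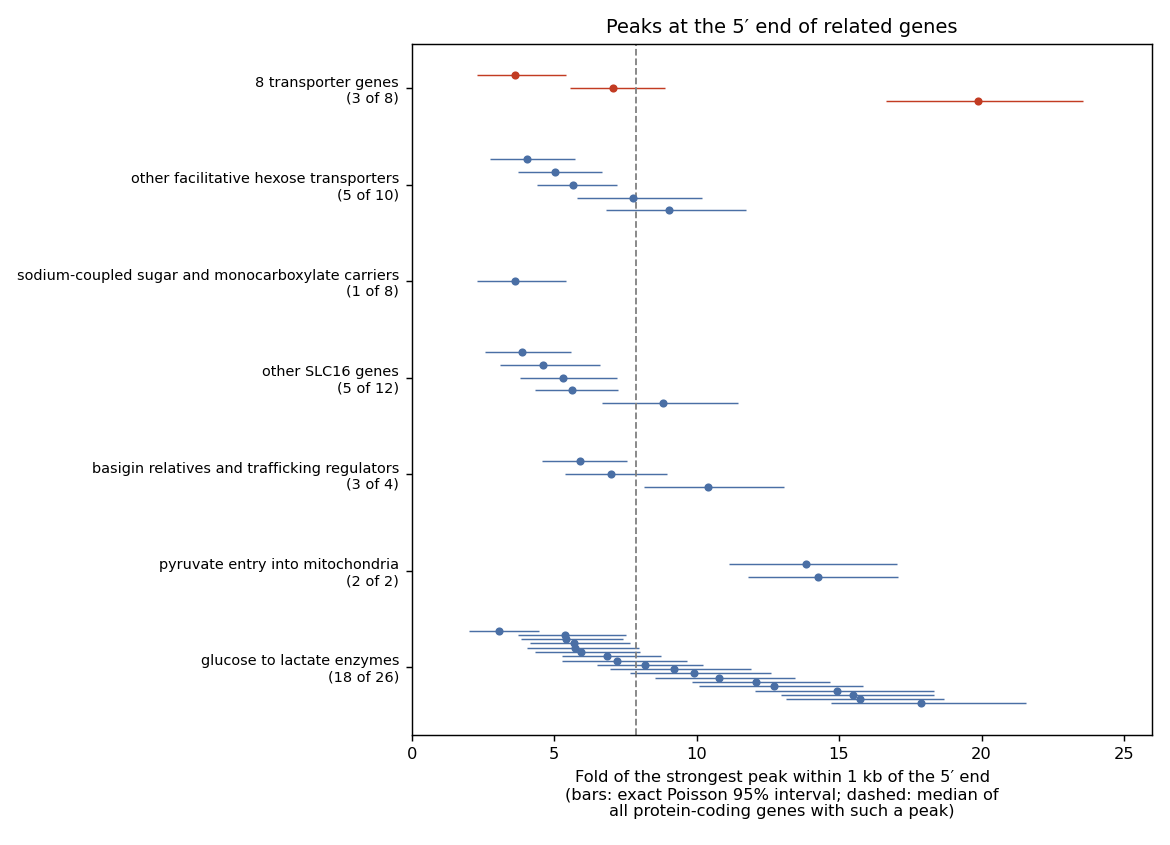
Fold of the strongest peak within 1 kb of the 5′ end, by gene list; points are genes with such a peak, bars exact Poisson 95% intervals, and the count of genes with a peak stands beside each list name. The 8 transporter genes are at the top with 3.61, 7.08 and 19.9, the dashed line is the median of all protein-coding genes with such a peak, 7.88, and the enzyme list at the bottom runs up to 17.9.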

How the data were processed

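Per the labels, Myc CUT&RUN was done on HT29 cells, with 3 Myc, 3 IgG and 1 input library; 1 peak list for the whole series was used. The submitters' processing notes name the genome build hg38 and, in no order, MACS2 2.1.2, BWA 0.7.15, deepTools 3.5.0, FastQC 0.11.7, HOMER 4.11.1, Picard 2.19.0 and SAMtools 1.5. Which library was the control, how replicates were joined, and duplicate removal, settings and library depth: not given in the sources used here. This deposited list has no header; its columns follow the narrowPeak format. The authors deposited for each peak a fold (a ratio with 1 added above and below), the −log10 p and the −log10 q at the summit, and a score made from the −log10 q; the lowest −log10 q in the authors' deposited table was 1.30.

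Pileups and control levels were solved from the fold and the −log10 p as a Poisson tail, within 0.001 for all 47016 nuclear peaks of the 47017 deposited (1 mitochondrial peak was left out); on 2000 simulated peaks 100% of pileups were recovered. Positions count from 1. Gene spans came from RefSeq GRCh38.p14, whose chromosomes are those of hg38, and strand (for 15842 of 20033 protein-coding genes) and starts from a RefSeq promoter table. Where no strand was given, both ends of the span were counted; any listed start was added as an alternative after the data were seen. No test was made, as the list has no value per library. The members and lists were chosen with earlier results of these data known. All members are named, and other genes where nearest to a peak, highest in a list or of close relation. Alternatives were other windows, thresholds, pseudocount and strength measures. Protein sequences were not used here. Python 3.11.15, pandas 2.3.3, SciPy 1.17.1, NumPy 2.4.6 and matplotlib 3.10.9 were used.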

Additional observations from a re-analysis of the deposited data

How the results depend on the processing

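Of 44 alternative values over 16 results, 36 stayed close to the value reported (counts within 1.5 times, folds inside their interval) and 8 moved. Among those that stayed close, the 42 peaks came to between 32 and 42, the 3 genes with a summit at the 5′ end to 3 or 4, and the 34 related genes with one to between 27 and 44. The 42 peaks came to 22 when only summits inside the gene spans were counted and to 65 with 50 kb around them, and 7 genes had a peak under both. Asking for a −log10 q of at least 3 or 5 left 6 genes, as SLC2A5 dropped out. The 3 genes with a summit within 1 kb of the 5′ end came to 5 within 2 kb, 6 within 5 kb and 5 when any base of the peak was enough. They came to 5 with any listed start, an alternative chosen after the data were seen. Shares over all protein-coding genes were computed for any listed start (57.3%), either annotated end (56.4%) and summits inside the span (57.5%). For the other distances and thresholds they were not, so those counts have no background and cannot be set against 54.5%. The 7 peaks nearer to another protein-coding gene came to 15 when non-coding genes were counted too. Ranked by the widest peak, only 2 of the 7 genes kept their place in the order by strongest fold. Ranked by −log10 q or pileup, all 7 did. Fold, −log10 q and pileup all rest on the same pileup and control level, so these rankings are not independent of each other. Folds without the added 1 stayed inside their intervals. No paired analysis was possible because the list holds no value per library. For the same reason no library could be left out. Library depth is unknown, and a gene without a peak may hold Myc below the list's threshold.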

Other observations

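For several genes of the glucose-to-lactate route, whether a peak counted at the start turned on which start was used; these genes were picked after their values were seen. HK1, the hexokinase gene of most tissues, had 12 peaks in its window, but the nearest summit was 47390 bp from the 5′ end of its span, while a fold of 6.34 stood within 1 kb of another listed start. HK2, the inducible hexokinase, had a fold of 13.3 at a listed start, with its nearest summit 1260 bp from the 5′ end of its span. ENO3, the muscle enolase, had 10.7 in the same way, 1034 bp from that end. SLC2A11, a facilitative hexose transporter, had 5.58 at a listed start and no summit within 1 kb of the end of its span. In the opposite direction, GAPDH, PKLR and PGAM1 had summits within 1 kb of the 5′ end of the span, with folds of 17.9, 12.7 and 5.95, but none within 1 kb of a start listed for them in the promoter table. The PKLR summit was 333 bp from the PKLR end and 121 bp from an end of FDPS, a gene of isoprenoid synthesis.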
